A study of Caenorhabditis elegans with 24 samples.

Results

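The 33 aminoacyl-tRNA synthetase genes of Caenorhabditis elegans were followed in whole worms over 4 ages of adulthood. They were taken by symbol, as every protein-coding gene named with 1 letter, "ars-" and the number 1, 2 or 3, and they are 33 of 19901 protein-coding genes. The symbol table of the annotation gave 32 of them. The other, mars-2 (WBGene00013678), carries that symbol in RefSeq only. All 33 passed the filter on low counts, and the lowest count of any of them in a library was 271 (nars-2). The symbol cars-2 belongs to a pseudogene in RefSeq, and the gene for the cytosolic valyl enzyme is now named glp-4, so neither was counted as a member. No gene with the symbol wars-2 was found, so the cytosolic tryptophanyl gene wars-1 has no mitochondrial partner here.

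Aminoacyl-tRNA synthetases join each amino acid to its tRNA and so supply the charged tRNAs that ribosomes read. Worm mitochondria have ribosomes and tRNAs of their own, but the synthetases that serve them are encoded in the nucleus, made in the cytosol and imported. Most amino acids therefore have a cytosolic and a mitochondrial enzyme from separate genes, while some have 1 gene whose products serve both compartments. By name, 14 members encode cytosolic forms, 13 encode mitochondrial forms, and 6 (cars-1, gars-1, hars-1, kars-1, qars-1 and tars-1) are the only member for their amino acid. The number in the symbol usually gives the compartment (1 cytosolic, 2 mitochondrial), but for alanine and valine it is the other way round, with aars-1 and vars-1 mitochondrial. Cytosolic phenylalanyl-tRNA synthetase is built of unlike subunits, encoded by fars-1 and fars-3. These compartments follow gene names and textbook knowledge and were not measured here.

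The worms were of 2 strains: CF1041, which carries daf-2(e1370), a reduced-function allele of the insulin/IGF-1 receptor gene known for long life, and the wild type N2. Both strains were fed OP50 bacteria, received 50 µM FUDR, a thymidylate synthesis inhibitor, from the last larval stage, and were collected on days 1, 4, 7 and 11 of adulthood, with 3 libraries in each of 8 groups. All 8 groups received the drug. Libraries were made from total RNA after removal of ribosomal RNA and held between 20661039 and 32655740 expected counts, of which ribosomal RNA took 3.9% to 14.55%. The members together took between 0.508% and 0.741%. Nothing in the labels tells if libraries of 1 group are separate cultures, and the p-values reflect the spread among the libraries as deposited, part of which may be technical. In RNA from whole worms, fewer cells of a type and less RNA per cell cannot be told apart. The libraries numbered 3 stood apart: at day 1 the members summed to 5160 CPM (counts scaled to the library's size) in the daf-2 library numbered 3, against at most 7733 CPM in daf-2 worms of that age, and to 5805 CPM in the N2 one, against at most 8301 CPM. Counts of members called are therefore also given without the 8 libraries numbered 3, a choice made after seeing the data.

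At all ages the mitochondrial forms were the less abundant ones. On the scale of CPM per kilobase of exon, averaged over 24 libraries, the median level was 20.4 for the 13 mitochondrial forms, 101 for the 14 cytosolic forms and 87.9 for the 6 genes that are alone for their amino acid. The members spanned a 21.1-fold range. The highest was sars-1, the cytosolic seryl enzyme, at 249 CPM per kilobase, and the lowest was ears-2, the mitochondrial glutamyl enzyme, at 11.8. Among mitochondrial forms rars-2 (arginyl, 50.2) and fars-2 (phenylalanyl, 48.7) were highest. They were at or above the cytosolic forms with the lowest levels, yars-1 (tyrosyl, 48.6) and wars-1 (tryptophanyl, 32.4).

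**Figure D1:**
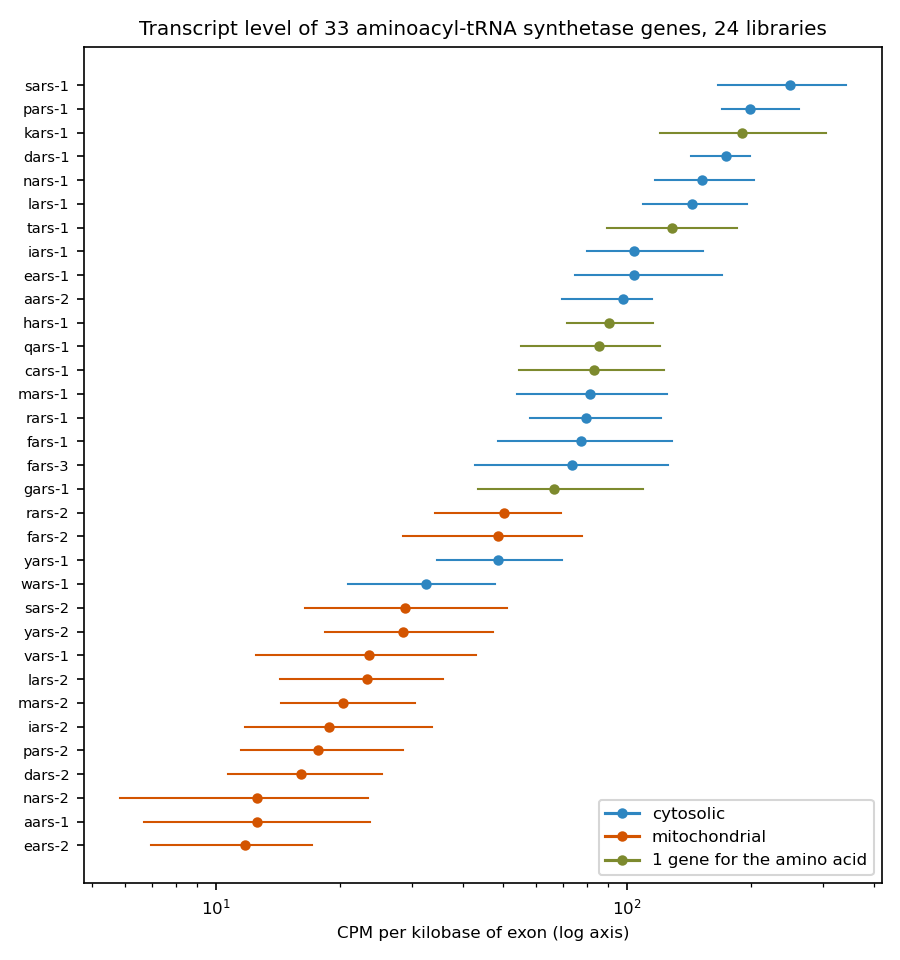
Level of each of the 33 genes in CPM per kilobase of exon on a log axis. Points are means over 24 libraries of both strains, lines run from the lowest to the highest library, and colours give the compartment. Mitochondrial forms fill the lower end, from 11.8 (ears-2) to 50.2 (rars-2), and sars-1 is highest at 249.

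Amino acids with members for both compartments gave 13 pairs, with fars-2 set against both fars-1 and fars-3. In all 13 pairs the mean level per kilobase of the mitochondrial form was below that of the cytosolic form in each of the 8 groups. The distance differed by amino acid. On day 1 the log2 ratio of the mitochondrial to the cytosolic form was -0.56 ± 0.06 in daf-2 worms and -0.73 ± 0.07 in N2 worms (SD, n = 3 each) for fars-2 over fars-1, and -3.37 ± 0.16 in daf-2 worms and -3.32 ± 0.18 in N2 worms for pars-2 over pars-1, the prolyl pair.

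The first question the design raises is how these genes changed with age in each strain. In daf-2 worms, 13 members were lower and 1 was higher at day 11 than at day 1, at an adjusted p under 0.05 (edgeR, quasi-likelihood). Over all 16698 genes tested, 18.0% were called lower and 22.3% higher in that comparison. In N2 worms, 20 members were lower, against 19.2% of all genes called lower and 22.5% called higher. No member was called higher in N2 by edgeR or DESeq2, and none had an unadjusted p under 0.05 in that direction. The median log2 fold change of the 33 members was -0.36 in daf-2 and -0.65 in N2, beside 0.09 and 0.10 for all genes. With the replicate number as a block, 21 members were lower and 1 higher in daf-2, and 28 were lower in N2. Without the libraries numbered 3, the lower calls were 26 in daf-2 and 29 in N2. Here and below, shares over all genes were counted in the main fit only. Counts of members from other fits therefore have no such share to stand beside, and their rise is not shown to be particular to the members.

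The fall was deepest among the mitochondrial forms. Of these, 10 of 13 were lower in daf-2 and 13 of 13 in N2, with median log2 fold changes of -0.88 in daf-2 and -1.05 in N2. Across the 16 alternative settings, between 8 and 13 of the 13 were lower in daf-2 and between 11 and 13 in N2. The 3 not called in daf-2 were yars-2, the tyrosyl form (-0.54 ± 0.27, SE, adjusted p = 0.112, edgeR), pars-2 (-0.48 ± 0.20, adjusted p = 0.0611) and mars-2, the methionyl form (-0.32 ± 0.18, adjusted p = 0.166). With the replicate block all 3 were called lower in daf-2, with adjusted p = 0.00765 for yars-2, 0.00137 for pars-2 and 0.0084 for mars-2 (edgeR). The smallest fall among mitochondrial forms in N2 was that of rars-2, at -0.46 ± 0.15 (adjusted p = 0.0187). Leaving out library 2 of either age ended its call in N2. So did upper-quartile scaling, library size alone and fitting only the groups compared. The N2 call of yars-2 (-0.84 ± 0.27, adjusted p = 0.017) ended when day 1 library 1 or 2 or day 11 library 2 or 3 was left out. It also ended with library size alone.

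**Figure D2:**
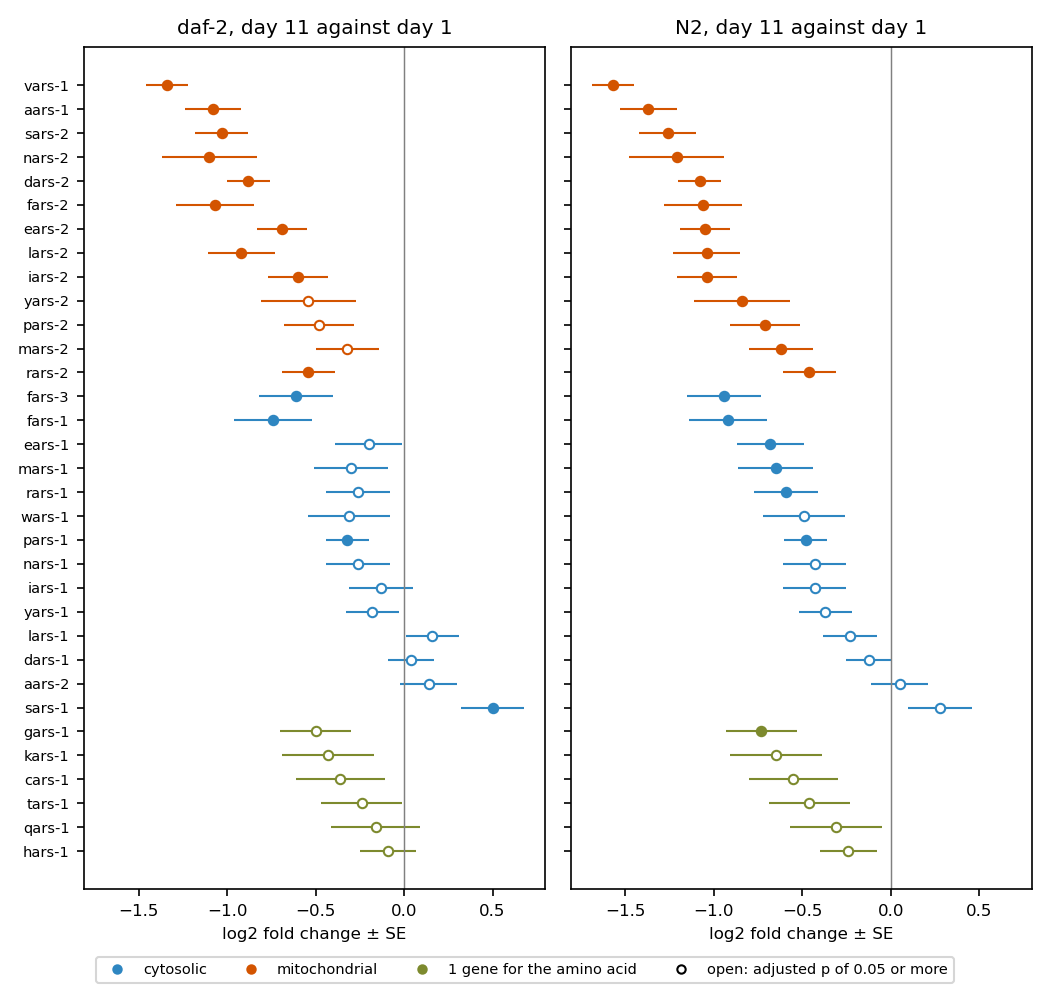
Log2 fold change at day 11 against day 1 of each gene, with its standard error, in daf-2 worms (left) and N2 worms (right), from edgeR. Filled points were called at an adjusted p under 0.05. Mitochondrial forms reach furthest to the left, to -1.34 in daf-2 and -1.57 in N2 (vars-1, both), and sars-1 lies furthest to the right. The classes overlap: the cytosolic fars-1 lies left of several mitochondrial forms in both strains.

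The largest fall was that of vars-1 (WBGene00006935, chromosome V, 8031411 to 8035025 on WBcel235), the mitochondrial valyl enzyme. In daf-2 worms its 3 libraries held 121, 120 and 112 CPM at day 1, 73.1, 70.3 and 62.0 at day 4, 51.1, 48.5 and 58.1 at day 7, and 47.9, 48.5 and 43.5 at day 11. In N2 worms they held 134, 128 and 111 CPM at day 1, 75.7, 78.4 and 82.0 at day 4, 57.6, 55.4 and 52.5 at day 7, and 45.7, 38.8 and 41.3 at day 11. In both strains every day 4 library was below every day 1 library. Every day 11 library was below every day 7 library in N2, while in daf-2 these ages met at 48.5 CPM. At day 11 against day 1 the log2 fold change was -1.34 ± 0.12 in daf-2 (adjusted p = 7.01e-08) and -1.57 ± 0.12 in N2 (adjusted p = 6.61e-09, edgeR).

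The mitochondrial alanyl enzyme, aars-1 (WBGene00000196, chromosome II, 11460205 to 11464497), followed a like course. It held 30.2, 27.2 and 23.5 CPM in daf-2 libraries at day 11, against 57.7, 60.9 and 51.8 at day 1. In N2 it held 28.0, 22.4 and 20.0 CPM at day 11, against 70.7, 60.7 and 51.0 at day 1. The ages did not overlap in either strain, with log2 fold changes of -1.08 ± 0.16 in daf-2 (adjusted p = 2.12e-05) and -1.37 ± 0.16 in N2 (adjusted p = 9.83e-07, edgeR). Its cytosolic counterpart aars-2 held 334, 359 and 293 CPM in daf-2 at day 11, against 342, 334 and 218 at day 1, and 314, 346 and 293 CPM in N2 at day 11, against 305, 361 and 256 at day 1. The ages of aars-2 overlapped in both strains, and it was not called (0.14 ± 0.16, adjusted p = 0.511 in daf-2; 0.05 ± 0.16, adjusted p = 0.837 in N2).

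For serine the forms differed in direction. The mitochondrial sars-2 (WBGene00005662, chromosome IV, 4357636 to 4359947) held 30.9, 30.3 and 23.1 CPM in daf-2 at day 11, against 58.5, 62.0 and 52.0 at day 1. In N2 it held 29.2, 24.6 and 25.7 CPM at day 11, against 71.9, 67.4 and 51.4 at day 1. It fell by 1.03 ± 0.15 in daf-2 and by 1.26 ± 0.16 in N2 on the log2 scale (adjusted p = 2.89e-05 in daf-2 and 2.29e-06 in N2, edgeR), with no overlap of the ages.

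The cytosolic sars-1 (WBGene00005663, chromosome IV, 10003726 to 10005578) was the 1 member called higher at day 11, in daf-2 worms. It held 469, 515 and 457 CPM in daf-2 at day 11, against 343, 400 and 274 at day 1, and 463, 453 and 444 CPM in N2 at day 11, against 411, 415 and 296 at day 1. Every day 11 library was above every day 1 library in both strains. The log2 fold change was 0.50 ± 0.18 in daf-2 (adjusted p = 0.0311) and 0.28 ± 0.18 in N2 (adjusted p = 0.226, not called, edgeR). The daf-2 call was lost without day 1 library 1, without day 1 library 3, without day 11 library 1 and without day 11 library 2 (each left out in turn). It was also lost with no filter and when only the groups compared were fitted.

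The mitochondrial asparaginyl enzyme nars-2 (WBGene00013447, chromosome III, 11488353 to 11500747) held 12.3, 14.8 and 9.97 CPM in daf-2 at day 11, against 30.2, 32.3 and 17.3 at day 1. In N2 it held 12, 11.6 and 8.05 CPM at day 11, against 30.0, 27.7 and 15.7 at day 1. In both strains library 3 was the lowest at both ages, and the ages did not overlap. It fell by 1.10 ± 0.27 in daf-2 and by 1.21 ± 0.27 in N2 on the log2 scale (adjusted p = 0.00286 in daf-2 and 0.00124 in N2, edgeR). Its cytosolic counterpart nars-1 held 250.1, 259 and 211 CPM in daf-2 at day 11, against 298, 349 and 212 at day 1, and 251, 242 and 210.3 CPM in N2 at day 11, against 336, 368 and 247 at day 1. These ages overlapped in both strains. In daf-2 nars-1 was not called (-0.26 ± 0.18, adjusted p = 0.263, edgeR), but it was called lower under 2 of 16 alternatives, which leave out day 1 library 3 or all libraries numbered 3. In N2 it missed the threshold (-0.43 ± 0.18, adjusted p = 0.0576), but it was called lower with the replicate block (adjusted p = 0.00241, edgeR) and under 8 of the 16 alternatives in all.

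The least abundant member, ears-2 (WBGene00001338), held 15.3, 16.0 and 12.7 CPM in daf-2 at day 11, against 21.0, 25.1 and 24.7 at day 1. In N2 it held 13.4, 13.1 and 10.9 CPM at day 11, against 27, 25.6 and 25.2 at day 1. The ages did not overlap, and it fell by 0.69 ± 0.14 in daf-2 and by 1.05 ± 0.14 in N2 on the log2 scale (adjusted p = 0.000718 in daf-2 and 7.27e-06 in N2, edgeR). Other mitochondrial forms called in both strains were dars-2 (aspartyl; -0.88 ± 0.12 in daf-2 and -1.08 ± 0.12 in N2), fars-2 (-1.07 ± 0.22 in daf-2 and -1.06 ± 0.22 in N2), lars-2 (leucyl; -0.92 ± 0.19 in daf-2 and -1.04 ± 0.19 in N2), iars-2 (isoleucyl; -0.60 ± 0.17 in daf-2 and -1.04 ± 0.17 in N2) and rars-2. The iars-2 call in daf-2 was lost without day 1 library 1 and without day 11 library 3. When only the groups compared were fitted, the daf-2 calls of iars-2 and rars-2 were lost.

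**Figure D3:**
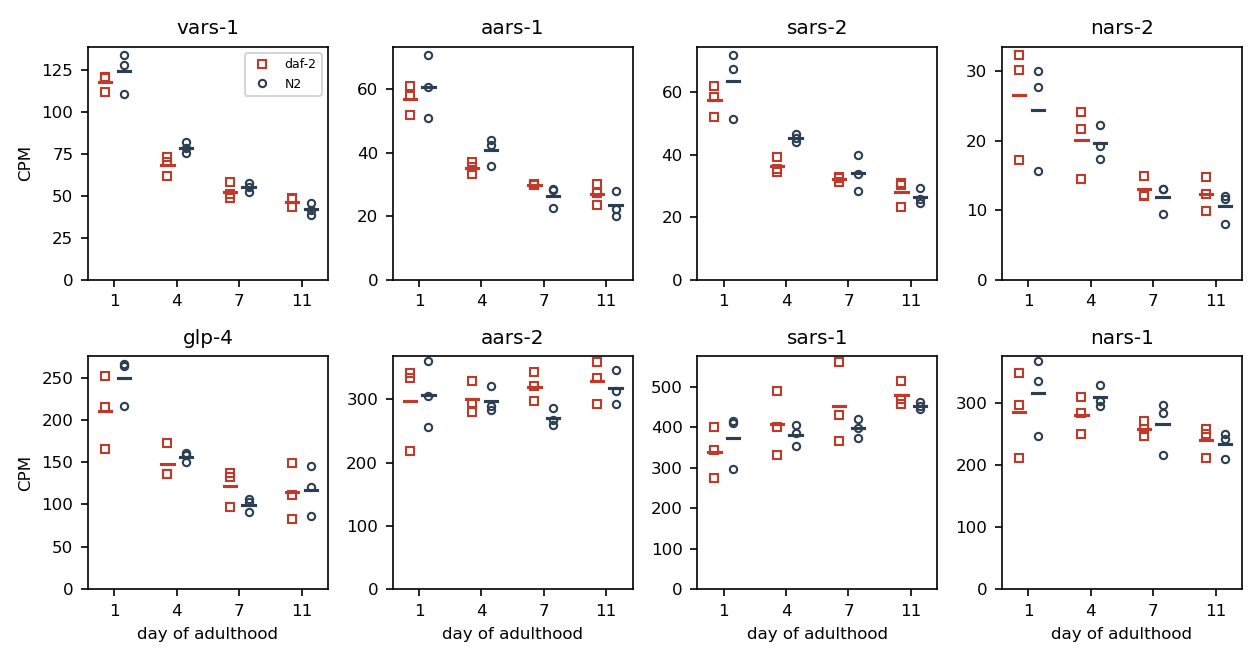
CPM in each library of 8 genes at days 1, 4, 7 and 11, with daf-2 worms as red squares left of N2 worms as dark circles and bars at group means. The mitochondrial vars-1, aars-1, sars-2 and nars-2 fell with age in both strains, as did the cytosolic glp-4, while aars-2 and nars-1 overlapped between days 1 and 11 and sars-1 was above its day 1 libraries at day 11.

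Fewer of the cytosolic forms were called, and their median change was smaller. Counts and medians here leave out glp-4, the cytosolic partner of vars-1, which was called lower in both strains. In daf-2, 3 of 14 were lower and sars-1 was higher, with a median log2 fold change of -0.23. That count is near the 18.0% of all genes called lower, so it says nothing particular of the cytosolic forms. In N2, 6 of 14 were lower, against 19.2% of all genes, with a median of -0.46. The difference in change between the classes was not tested. The lower calls without single libraries were 1 without day 1 library 1, 0 without day 1 library 2, 1 without day 11 library 1 and 0 without day 11 library 3 in daf-2. In N2 they were 3 without day 1 library 1 and 10 without day 1 library 3. With the replicate block they were 6 in daf-2 and 10 in N2, and without the libraries numbered 3 they were 8 in daf-2 and 10 in N2.

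Among the cytosolic members, those that fell most were the subunits of phenylalanyl-tRNA synthetase. The cytosolic glp-4, which is not a member, was lower still, at -0.88 in daf-2 and -1.08 in N2. The log2 fold change of fars-1 was -0.74 ± 0.22 in daf-2 and -0.92 ± 0.22 in N2 (adjusted p = 0.0113 in daf-2 and 0.00239 in N2, edgeR), and that of fars-3 was -0.61 ± 0.21 in daf-2 and -0.94 ± 0.21 in N2 (adjusted p = 0.0255 in daf-2 and 0.00127 in N2). The third cytosolic form called in both strains was pars-1 (-0.32 ± 0.12 in daf-2 and -0.48 ± 0.12 in N2). Called in N2 were also ears-1 (-0.68 ± 0.19), mars-1 (-0.65 ± 0.21) and rars-1 (-0.59 ± 0.18). Of these, mars-1 and rars-1 were called lower in daf-2 too with the replicate block (adjusted p = 0.0437 for mars-1 and 0.0173 for rars-1, edgeR). All 3 daf-2 calls were lost without day 1 library 2 and without day 11 library 3. Those of fars-3 and pars-1 were also lost without library 1 of either age, and that of pars-1 without day 11 library 2. Upper-quartile scaling, library size alone and fitting only the groups compared each ended the daf-2 calls of fars-3 and pars-1 as well. In N2, ears-1, mars-1 and rars-1 lost their calls without day 1 library 1, mars-1 and rars-1 also without day 11 library 3, and mars-1 also without day 1 library 2. Library size alone ended the N2 calls of these genes and of pars-1. Fitting only the groups compared ended those of mars-1 and pars-1. The log2 fold changes of lars-1, dars-1 and aars-2 in daf-2 lay between 0.04 and 0.16 and were not called.

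The cytosolic valyl gene glp-4, the partner of vars-1, fell as well, although it is outside the symbol rule. It held 111, 149 and 83.2 CPM in daf-2 at day 11, against 252, 215 and 166 at day 1. In N2 it held 121, 145 and 86.9 CPM at day 11, against 266, 264 and 217 at day 1. The ages did not overlap, and the log2 fold change was -0.88 ± 0.21 in daf-2 and -1.08 ± 0.21 in N2 (adjusted p = 0.0027 in daf-2 and 0.000427 in N2, edgeR). Valine was an amino acid for which the genes of both compartments were called lower in both strains, as phenylalanine was.

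Of the 6 genes that are alone for their amino acid, gars-1, the glycyl enzyme, was the 1 called in N2 at day 11 (-0.73 ± 0.20, adjusted p = 0.00664, edgeR). In daf-2 none was called by edgeR, 1 had an unadjusted p under 0.05 and DESeq2 called 1, and gars-1 was at -0.50 ± 0.20 (adjusted p = 0.0522; 0.00288 with the replicate block). Their medians were -0.30 in daf-2 and -0.51 in N2. Over all genes 18.0% were lower in daf-2 and 19.2% in N2, so the edgeR counts say nothing particular of these 6 genes. With the replicate block 2 were lower in daf-2 and 5 in N2, and without the libraries numbered 3 there were 5 in daf-2 and 6 in N2.

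In the main fit, most of the calls made at day 4 were of mitochondrial forms. At day 4 against day 1, 5 members were lower in daf-2 worms, all of them mitochondrial: vars-1 (-0.78 ± 0.12), aars-1 (-0.69 ± 0.16), sars-2 (-0.67 ± 0.15), iars-2 (-0.62 ± 0.17) and dars-2 (-0.58 ± 0.12). Over all genes, 5.02% were lower and 4.22% higher. In N2, 6 members were lower, against 6.08% of all genes lower and 3.01% higher. These were the same 5 mitochondrial genes and yars-1, the cytosolic tyrosyl enzyme (-0.49 ± 0.15, adjusted p = 0.0464, edgeR). No member was called higher at day 4 in either strain by edgeR or DESeq2, and none had an unadjusted p under 0.05 in that direction.

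These day 4 counts depended on the fit. With the replicate block 16 members were lower in daf-2, 10 of them mitochondrial and 4 cytosolic. The block gave 17 in N2, 7 of them mitochondrial and 7 cytosolic. Without the libraries numbered 3 there were 15 in daf-2, 6 of them mitochondrial and 6 cytosolic. There were then 20 in N2, 8 of them mitochondrial and 8 cytosolic. Among these fits, mitochondrial calls outnumbered cytosolic calls only in daf-2 with the block. In N2 the count was 2 without day 1 library 1 or day 4 library 1, and 3 without day 1 library 2, day 4 library 2 or day 4 library 3. When only the groups compared were fitted, it was 1 in daf-2 and 0 in N2.

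At day 7, 14 members were lower in daf-2 worms, 10 of them mitochondrial, 3 cytosolic (fars-1, fars-3 and pars-1) and gars-1. Over all genes 12.7% were lower and 15.1% higher. In N2 20 were lower, 10 of them mitochondrial, 9 cytosolic and gars-1, against 13.1% of all genes lower and 12.8% higher. None was called higher by edgeR or DESeq2 in either strain, and 1 had an unadjusted p under 0.05 in that direction in daf-2 and 0 in N2. The largest changes at that age were those of vars-1 in daf-2 (-1.16 ± 0.12) and aars-1 in N2 (-1.20 ± 0.16).

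With the replicate block 24 members were lower and 1 higher in daf-2 at day 7. Without the libraries numbered 3 there were 28 lower in daf-2 and 30 in N2. Leaving out single libraries gave 8 in daf-2 without day 1 library 2 or without day 7 library 3, and 22 without day 1 library 3. In N2 there were 11 without day 1 library 1 and 12 without day 7 library 3.

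The course over the 4 ages differed in form between the classes. Group means of the mitochondrial forms were lowest at day 11 for 9 of 13 in daf-2 and 12 of 13 in N2, and fell at each step for 9 of 13 in daf-2 and 11 of 13 in N2. Group means of the cytosolic forms were lowest at day 7 for 9 of 14 in each strain, and the day 11 mean was above the day 7 mean for 11 of 14 in daf-2 and 9 of 14 in N2. These counts rest on means of 3 libraries and were not tested.

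The share of the mitochondrial forms in the summed level per kilobase of the mitochondrial and cytosolic members was 19.4% ± 1.04 at day 1, 16.4% ± 2.01 at day 4, 14.2% ± 1.29 at day 7 and 12.7% ± 0.516 at day 11 in daf-2 worms (SD, n = 3 each). In N2 worms it was 18.6% ± 0.148 at day 1, 18.1% ± 0.797 at day 4, 16.1% ± 1.42 at day 7 and 12.8% ± 0.83 at day 11. The day 11 libraries ran from 12.2% to 13.2% in daf-2 and from 11.8% to 13.3% in N2, and the day 1 libraries from 18.7% to 20.6% in daf-2 and from 18.5% to 18.8% in N2, with no overlap in either strain. Being a ratio within a library, this share does not depend on how libraries are scaled to each other. The share and the sums below leave out the cytosolic glp-4 but include its mitochondrial partner vars-1, as membership follows the symbol. The summed level of the mitochondrial forms was 235 ± 20.3 CPM per kilobase at day 11, against 412 ± 54.9 at day 1 in daf-2, and 221 ± 18.4 at day 11, against 434 ± 68.4 at day 1 in N2. That of the cytosolic forms was 1625 ± 158 at day 11, against 1722 ± 324 at day 1 in daf-2, and 1507 ± 118 at day 11, against 1900 ± 316 at day 1 in N2. No test was run on these sums: with 3 libraries against 3, an exact permutation test cannot go below 0.10.

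**Figure D4:**
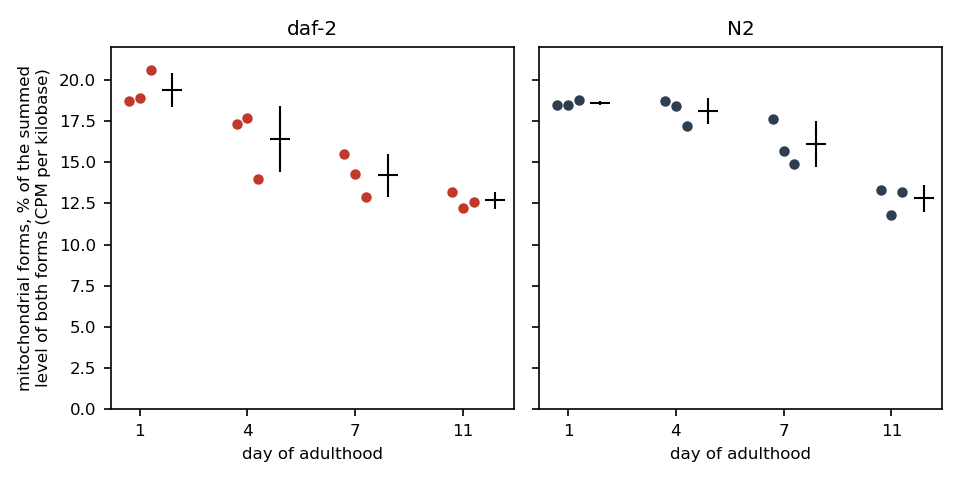
Mitochondrial forms as a percentage of the summed level (CPM per kilobase) of the 13 mitochondrial and 14 cytosolic members, by day of adulthood, in daf-2 worms (left) and N2 worms (right). Points are libraries 1 to 3 from left to right, and crosses give the mean ± SD. The share was 12.7% in daf-2 and 12.8% in N2 at day 11, against 19.4% in daf-2 and 18.6% in N2 at day 1.

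The ratio of mitochondrial to cytosolic form moved unequally over the amino acids. At day 11 minus day 1, the mean log2 ratio was lower in 13 of 13 pairs in daf-2 and 11 of 13 in N2, with medians of -0.47 in daf-2 and -0.41 in N2. The largest drop was for sars-2 over sars-1, at -1.56 in daf-2 and -1.54 in N2. That ratio was -3.87 ± 0.19 at day 11, against -2.32 ± 0.15 at day 1 in daf-2, and -3.87 ± 0.11 at day 11, against -2.32 ± 0.06 at day 1 in N2. Alanine was next, at -1.25 in daf-2 and -1.43 in N2. Leucine (-1.08 in daf-2 and -0.80 in N2), aspartate (-0.93 in daf-2 and -0.97 in N2) and asparagine (-0.84 in daf-2 and -0.76 in N2) followed, and for these 5 amino acids the day 11 and day 1 libraries did not overlap. Nor did they overlap in either strain for isoleucine and glutamate, where the drops were smaller. For glutamate the ages lay close: the lowest day 1 library was at -3.39 in daf-2 and -3.31 in N2. The highest day 11 library was at -3.46 in daf-2 and -3.41 in N2. Day 1 library 3 stood well above, at -2.43 in daf-2 and -2.67 in N2. The day 11 and day 1 libraries overlapped in both strains for arginine, methionine, proline and tyrosine, and in N2 alone for phenylalanine. Overlap was not counted for gene pairs of other families.

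Methionine showed little movement. The log2 ratio of mars-2 over mars-1 was between -2.02 and -1.96 in all 8 group means, and moved by -0.03 in daf-2 and 0.02 in N2 between day 1 and day 11. Both genes were called lower in N2 at day 11 (mars-2 at -0.62 ± 0.18, mars-1 at -0.65 ± 0.21), and neither in daf-2 without the replicate block, with which both were. The mars-2 call in N2 was lost without day 1 library 1 and without day 11 library 3. The arginyl pair, rars-2 over rars-1, did not run one way: its ratio was -0.72, -0.42, -0.56 and -1.01 over the 4 ages in daf-2, and -0.98, -0.39, -0.36 and -0.86 in N2.

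**Figure D5:**
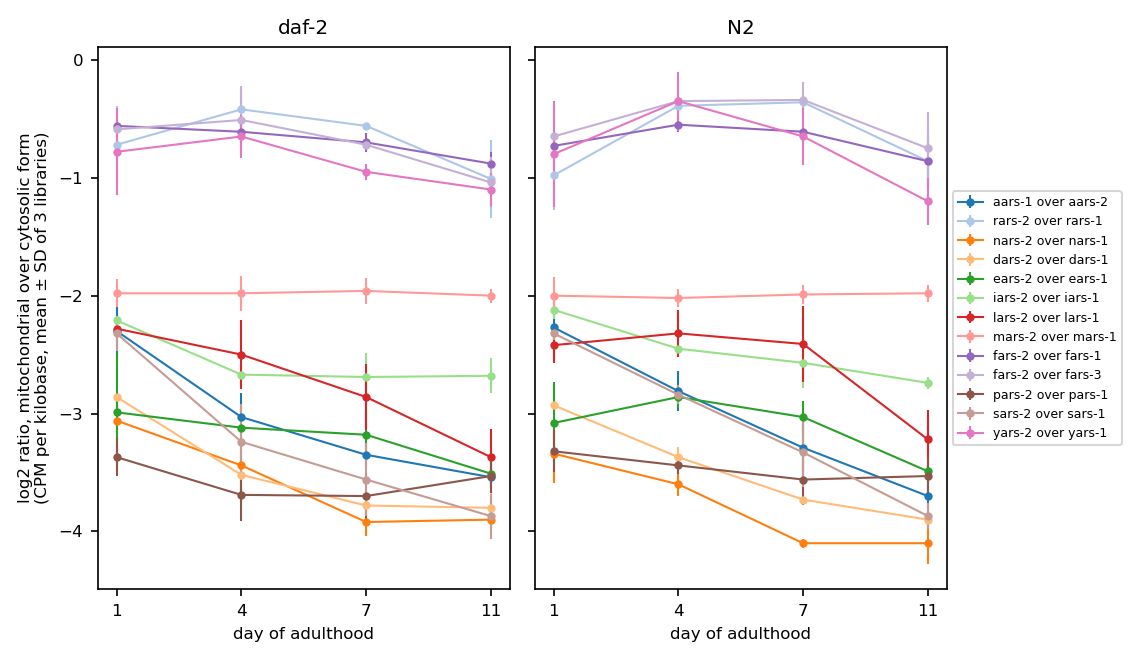
Log2 ratio of the mitochondrial over the cytosolic form (CPM per kilobase, mean ± SD of 3 libraries) for 13 pairs of members by day of adulthood, in daf-2 worms (left) and N2 worms (right). All ratios are below 0, sars-2 over sars-1 drops most (by 1.56 in daf-2 and 1.54 in N2), and mars-2 over mars-1 stays near -2.0.

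The second question is whether the strains differ. No member was called between daf-2 and N2 worms at any age, by edgeR or DESeq2, with or without the replicate block or the libraries numbered 3. Over all genes, 1.14% were higher and 0.611% lower in daf-2 at day 1, 1.56% higher and 0.371% lower at day 4, 1.10% higher and 0.994% lower at day 7, and 1.71% higher and 2.24% lower at day 11, so few calls were made for genes of any kind. Unadjusted p-values under 0.05 numbered 0 at day 1, 2 at day 4, 0 at day 7 and 0 at day 11. The 2 at day 4 were ears-2 (-0.32 ± 0.14, adjusted p = 0.429) and sars-2 (-0.32 ± 0.15, adjusted p = 0.51, edgeR), both mitochondrial.

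The log2 fold changes of the 33 members, daf-2 over N2, ran from -0.23 to 0.12 at day 1, from -0.32 to 0.09 at day 4, from -0.29 to 0.25 at day 7 and from -0.06 to 0.25 at day 11. The 95% intervals of single members reached down to -0.74 and up to 0.67 at day 1, and down to -0.52 and up to 0.79 at day 11, so that differences of that size in a member are within what these libraries allow. At day 1, 31 of 33 members were below 0, and at day 11, 30 of 33 were above 0. The members' median was -0.14 at day 1 and 0.09 at day 11, beside -0.02 and -0.0 for all genes. Shares of all genes by sign were not counted. The summed level of the members differed between libraries of 1 group, so their signs are not independent and do not show a strain difference.

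The difference in age change itself (day 11 against day 1 in daf-2 minus that in N2) was called for none of the 33 by edgeR or DESeq2, and none had an unadjusted p under 0.05. Over all genes 0.0838% were called higher and 0.264% lower. The difference was above 0 for 31 of 33 members, which is to say that the log2 fold change was more negative in N2, and the median was 0.22 beside -0.00 for all genes. Here too the signs of members are not independent of each other. It ran from -0.08 (rars-2) to 0.48 (ears-1), and single intervals reached from -0.67 to 1.08. For vars-1 it was 0.23, with a 95% interval from -0.12 to 0.58. The 7 members called lower in N2 and not in daf-2 at day 11 (ears-1, mars-1, rars-1, gars-1, mars-2, pars-2 and yars-2) are therefore not shown to differ between the strains, and 6 of these 7, all but ears-1, were called lower in daf-2 with the replicate block.

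Genes that act beside the synthetases were read from the same fits. Of 9 elongation factor genes, whose products bring charged tRNA to the ribosome, recharge the factors that do so or move the ribosome on, the 4 mitochondrial translation factors were lower at day 11 in both strains: tufm-1 (-0.88 ± 0.24 in daf-2 and -1.12 ± 0.24 in N2) and tufm-2 (-1.05 ± 0.25 in daf-2 and -1.15 ± 0.25 in N2), elongation factors of the EF-Tu kind, their exchange factor tsfm-1 (-0.82 ± 0.23 in daf-2 and -1.05 ± 0.23 in N2) and gfm-1, of the EF-G kind (-0.92 ± 0.27 in daf-2 and -1.14 ± 0.27 in N2). The 5 cytosolic genes of that list were not called. Among them eef-1A.2 was at 0.74 ± 0.38 in daf-2 and 0.93 ± 0.38 in N2 (adjusted p = 0.127 in daf-2 and 0.0554 in N2, edgeR). Of mitochondrial ribosomal protein genes, 64 of 69 were lower in daf-2 and 66 of 69 in N2, with medians of -0.86 in daf-2 and -1.02 in N2. Of cytosolic ribosomal protein genes, 8 of 77 were lower and 3 higher in daf-2, and 19 of 77 were lower in N2, with medians of -0.22 in daf-2 and -0.35 in N2. Over all genes 18.0% were lower and 22.3% higher in daf-2, and 19.2% lower and 22.5% higher in N2. In daf-2 the shares of cytosolic ribosomal protein genes called were below these. In N2 the share called lower was somewhat above, while 0 of 77 were called higher.

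Of 5 measured genes of amino acid sensing and translation stress, pek-1, the kinase of the endoplasmic reticulum stress response, was higher at day 11 in both strains (0.66 ± 0.15 in daf-2 and 0.94 ± 0.15 in N2; adjusted p = 0.0015 in daf-2 and 4.47e-05 in N2, edgeR). The kinase gcn-2, which is activated by uncharged tRNA, was at -0.47 ± 0.25 in daf-2 (adjusted p = 0.135) and was lower in N2 (-0.72 ± 0.25, adjusted p = 0.0258). The transcription factor genes atf-4 and atfs-1, and gcn-1, whose product activates the gcn-2 kinase, were not called in either strain at day 11. At day 7 gcn-1 was lower in N2 (-0.92 ± 0.3, adjusted p = 0.0294, edgeR).

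Markers of several tissues moved with age as well. Their counts of calls stand beside 18.0% of all genes lower and 22.3% higher in daf-2, and 19.2% lower and 22.5% higher in N2. In daf-2 the share of oocyte genes and of neuronal genes called higher was below that of all genes. Summed over 10 germline genes, libraries held 1080 to 1487 CPM at day 11, against 1264 to 2332 at day 1 in daf-2, and 1052 to 1421 CPM at day 11, against 1523 to 2658 at day 1 in N2, with 3 of 10 lower in daf-2 and 4 of 10 in N2. The 6 intestinal genes summed to 124 to 184 CPM at day 11, against 674 to 816 at day 1 in daf-2, and 170.1 to 179 CPM at day 11, against 578 to 748 at day 1 in N2, with 4 of 6 lower in each strain. The 6 muscle genes, all lower in both strains, summed to 216 to 370.4 CPM at day 11, against 971 to 2896 at day 1 in daf-2, and to 257 to 455 CPM at day 11, against 1262 to 1925 at day 1 in N2.

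The other marker lists moved less or were low. The 8 oocyte genes summed to 4201 to 5510 CPM at day 11, against 2681 to 6351 at day 1 in daf-2, and to 4809 to 5724 CPM at day 11, against 3301 to 7457 at day 1 in N2, with 1 of 8 called higher in daf-2 and 2 in N2. The 6 neuronal genes summed to 123 to 129 CPM at day 11, against 86.3 to 110.3 at day 1 in daf-2, and to 142 to 163 CPM at day 11, against 86.6 to 111 at day 1 in N2, with 1 of 6 called higher in daf-2 and 2 in N2. The 4 early embryo genes summed to 9.34 to 15.5 CPM at day 11, against 24.2 to 32.9 at day 1 in daf-2, and to 9.85 to 13.9 CPM at day 11, against 26.9 to 32.0 at day 1 in N2, with med-2 under 1 CPM in every group. Of the 3 early embryo genes tested, 1 was lower in daf-2 and 2 in N2. The part of tissue composition in the age changes of the synthetases was not tested.

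The members lie on 5 chromosomes, with 10 on I, 5 on II, 6 on III, 8 on IV and 4 on V. On WBcel235, 15 of them overlap another protein-coding gene, 13 on the opposite strand and 3 on the same strand (iars-2 both). Of the genes given by library, nars-2, sars-1 and ears-2 overlap a gene on the opposite strand. The libraries were stranded, but whether the counting used the strand is not given in the sources used here, so reads of such neighbours may be included in these values. No protein-coding gene was annotated as overlapping vars-1, aars-1, aars-2, sars-2 or nars-1.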

How the data were processed

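The authors deposited expected counts per gene for each of 24 libraries, whose columns need not be whole. STAR 2.7.0e, RSEM 1.3.1, WBcel235 and ce11 are named in the submitters' processing notes, with no role given. The deposited counts were rounded to whole numbers here. Rows without a gene in the annotation took at most 0.00887% of a library. Symbols, exon lengths and positions came from the Ensembl annotation of WBcel235 and from RefSeq.

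Genes were kept by edgeR's filterByExpr, which left 16698, and scaled by TMM. One model held the 24 libraries with 1 mean for each group (biological coefficient of variation 0.273). Contrasts were tested by quasi-likelihood in edgeR, Benjamini-Hochberg adjusted over all genes tested at 0.05, and log2 fold changes are edgeR's. CPM are TMM-scaled. Standard errors are the change divided by the root of the F statistic. Depth ran from 20661039 to 32655740 counts per library, and replicate libraries all differed by more than sampling noise (median chi-square at least 2.87). The steps were tested on simulated data.

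The members and lists were chosen with earlier results of these data known. Values by library are given for the 3 called members with the largest change in the day 11 against day 1, day 1 and day 11 strain, and strain by age comparisons, for the other genes of the same amino acids, for members called against the common direction, and for the members highest and lowest per kilobase.

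Libraries with the same number deviated together: each of 24 libraries correlated best with one of its own number, and every pair's correlation of deviations exceeded 0.1 in the strain comparisons, the daf-2 age comparisons and N2 at day 11 (highest 0.635), so that the numbers were taken to pair these samples. For N2 at days 4 and 7 the lowest pairs were at 0.085 and 0.096. The main fit had no block, so its standard errors and adjusted p-values do not take the pairing into account. Alternatives were a replicate block, DESeq2's Wald test, scaling by RLE, upper quartile or library size, a filter at 1 CPM in 3 libraries or none, protein-coding genes only, only the groups compared, and each library left out in turn. Versions were Python 3.11.15 with pandas 2.3.3, and R 4.3.3 with DESeq2 1.42.0 and edgeR 4.0.16.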

Additional observations from a re-analysis of the deposited data

How the results depend on the processing

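At day 11 against day 1, 8 of the 14 calls in daf-2 and 13 of the 20 in N2 held under each of 16 alternatives, and no strain or strain by age comparison called a member under any. The median log2 fold change of all genes moved by 0.20 in daf-2 and 0.18 in N2 with upper-quartile scaling, and by 0.20 in daf-2 and 0.23 in N2 with library size alone.

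Lower calls in daf-2 were 16 at day 4, 24 at day 7 and 21 at day 11 with the replicate block, and 1 at day 4 and 8 at day 7 when only the groups compared were fitted. In N2 they were 17 at day 4 with the block, 0 at day 4 and 6 at day 7 with only the groups compared, and 2 at day 4 and 13 at day 7 with library size alone. At day 4 and day 7 in N2 the numbers were not taken to pair the samples. Shares over all genes were not counted for any of these alternatives. Without the libraries numbered 3 they were 15, 28 and 26 over the 3 ages in daf-2 and 20 at day 4 in N2. With single libraries left out they ran from 4 to 6 at day 4, 8 to 22 at day 7 and 9 to 19 at day 11 in daf-2, and from 2 to 7 at day 4, 11 to 25 at day 7 and 15 to 27 at day 11 in N2. Cytosolic lower calls at day 11 were 1 with upper-quartile scaling, 1 with library size alone, 6 with the block, 1 with only the groups compared, 8 without the libraries numbered 3 and 0 to 4 with single libraries left out in daf-2, and 2 with library size alone, 10 with the block, 10 without the libraries numbered 3 and 3 to 10 with single libraries left out in N2.

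Higher calls were 2 in daf-2 at day 11 with library size alone and with upper-quartile scaling, 0 there with no filter and with only the groups compared, and 0 to 1 with single libraries left out. They were 1 in daf-2 at day 7 with upper-quartile scaling and with the block (0 to 1 with single libraries left out), and 1 in N2 at day 11 with either of these scalings. The mitochondrial share in N2 at day 1 was 18.8% per coding kilobase. The causes were not tested.

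Changes of sign were confined, over these alternatives at day 11 against day 1, to members not called. In daf-2, dars-1 was at -0.01 with no filter, -0.04 without the libraries numbered 3 and from -0.08 (without day 1 library 3) to 0.13 with single libraries left out, and aars-2 from -0.05 (without day 1 library 3) to 0.25. With upper-quartile scaling and library size alone in daf-2, ears-1 was at 0.02 and 0.01, hars-1 at 0.13 and 0.12, iars-1 at 0.09 and 0.08, qars-1 at 0.06 and 0.06, and yars-1 at 0.03 and 0.03. In N2, aars-2 was at 0 with RLE scaling and with DESeq2, -0.01 without the libraries numbered 3, and from -0.07 (without day 1 library 3) to 0.18 with single libraries left out. With library size alone dars-1 was there at 0.12 and lars-1 at 0, and upper-quartile scaling put dars-1 at 0.07.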
